A study of Homo sapiens with 12 samples.

Results

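The proteasome genes were taken as the genes whose symbol begins with PSMA, PSMB, PSMC, PSMD, PSME, PSMF or PSMG followed by a digit. Of the 11963 genes named by a probe set with a single symbol, 41 matched, and all 41 were above the signal filter that left 7178 genes for testing. They comprise 13 genes of the constitutive core (6 alpha and 7 beta subunits), 3 immunoproteasome beta subunits and 14 genes of the regulatory cap (5 base ATPases, 3 other base subunits and 6 lid subunits). A further 9 code for cap assembly chaperones (3), core assembly chaperones (2), activators (3) and an inhibitor (1). PSMC3IP and PSME3IP1 matched by name alone, since their products are named as binding partners of a subunit and are not subunits themselves, so 39 of the 41 are proteasome genes. PSMA6, PSMA8, PSMB11, PSMC5, PSMD7, PSMD13, PSME2, PSMG3 and PSMG4 were not analysed here.

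The arrays were Affymetrix arrays of total RNA from 5 human melanoma cell lines, all of which carry the BRAF V600E mutation that keeps the RAF, MEK and ERK kinase cascade active. Cells received 0.1% DMSO, the solvent control, or the RAF inhibitor PLX4032 (vemurafenib) at 250 nM for 8 h. The lines were SkMel-1, then SkMel-5, then SkMel-28, then SkMel-19 and last Malme3M, which is the order used for all values listed per line. A dose of 1000 nM for 8 h was added in SkMel-19 and in Malme3M, which makes 5 DMSO, 5 250 nM and 2 1000 nM arrays. Each line was hybridised once per dose, so the lines are the replicates, and nothing names repeated cultures of a line. The p-values of the dose comparisons therefore measure the spread over these lines.

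The proteasome is the barrel-shaped protease that degrades proteins tagged with ubiquitin. Its core particle stacks rings of alpha subunits, which gate the entry, on rings of beta subunits, of which PSMB5, PSMB6 and PSMB7 carry the catalytic sites. The cap binds the ubiquitin chain, removes it and threads the unfolded protein into the core by means of its ATPases. In cells exposed to interferon, PSMB8, PSMB9 and PSMB10 take the places of PSMB5, PSMB6 and PSMB7 in newly built cores, which then cut more of the peptides shown on class I molecules.

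The arrays shared 1 scale as deposited, with a median signal between 102.5 and 130.4 per array. All 8 genes of a list of ERK-driven genes fell at 250 nM, with a median log2 change of -2.85. Of 9 melanocyte markers with a probe set, 8 were above the filter signal of 85.7 on every array, the exception being TYRP1, which was low in SkMel-1. The fibroblast markers COL3A1, PDGFRA, PDGFRB and THY1, the blood cell markers PTPRC, CD3E, CD14 and LYZ, the epithelial markers EPCAM, KRT5, KRT14 and KRT19 and the endothelial markers PECAM1, CDH5 and TEK were under that signal on every array. Other markers of these lists were above it. COL1A1 (144.5 to 236.8) and LUM (225.8 to 1720.2) of the 8 fibroblast markers, and KRT18 (91.5 to 781.0) of the 7 epithelial markers, were above it on every array. In DMSO, CDH1 reached 4537 in Malme3M, HLA-DRA 8739 and KDR 544.0 in SkMel-28, and LCP1 2199.9 in SkMel-1. The summed DMSO signal per line ran from 651 to 1808 for the fibroblast list, 133.5 to 8859 for the blood cell list, 696 to 4940.3 for the epithelial list and 77.5 to 624.5 for the endothelial list, and the part of such cells or genes in the line differences was not tested. In such bulk RNA, fewer cells of a type and less RNA per cell cannot be told apart.

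After 8 h at 250 nM, the proteasome genes showed small changes beside those of all genes. Of the 41, 1 rose and 3 fell. The lid subunit PSMD12, the nuclear activator PSME3 and the core assembly chaperone PSMG1 were lower with the drug, and the cap assembly chaperone PSMD10 was higher, by 1.17-fold to 1.27-fold. These 4 calls are from limma with cell line as a block, at an adjusted p under 0.05 over all 7178 genes. Over all genes, 15.2% rose and 13.1% fell in the same test. The size of the change was under 0.2 on the log2 scale in 35 of the 41 genes (85.4%), against 53.1% of all genes tested. The median size was 0.08 for the members and 0.19 for all genes. The residual SD within lines was also lower, with a median of 0.07 for the members and 0.15 for all genes. Mean DMSO signals of the members ran from 204 to 7664, while the median signal per array was 102.5 to 130.4. These comparisons with all genes were not matched for signal, and the part of signal level in them was not tested. At an unadjusted p under 0.05, 5 of the 41 passed, against 2970 of the 7178. The plot of the change of each gene in each line shows the narrow band around 0.

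**Figure D1:**
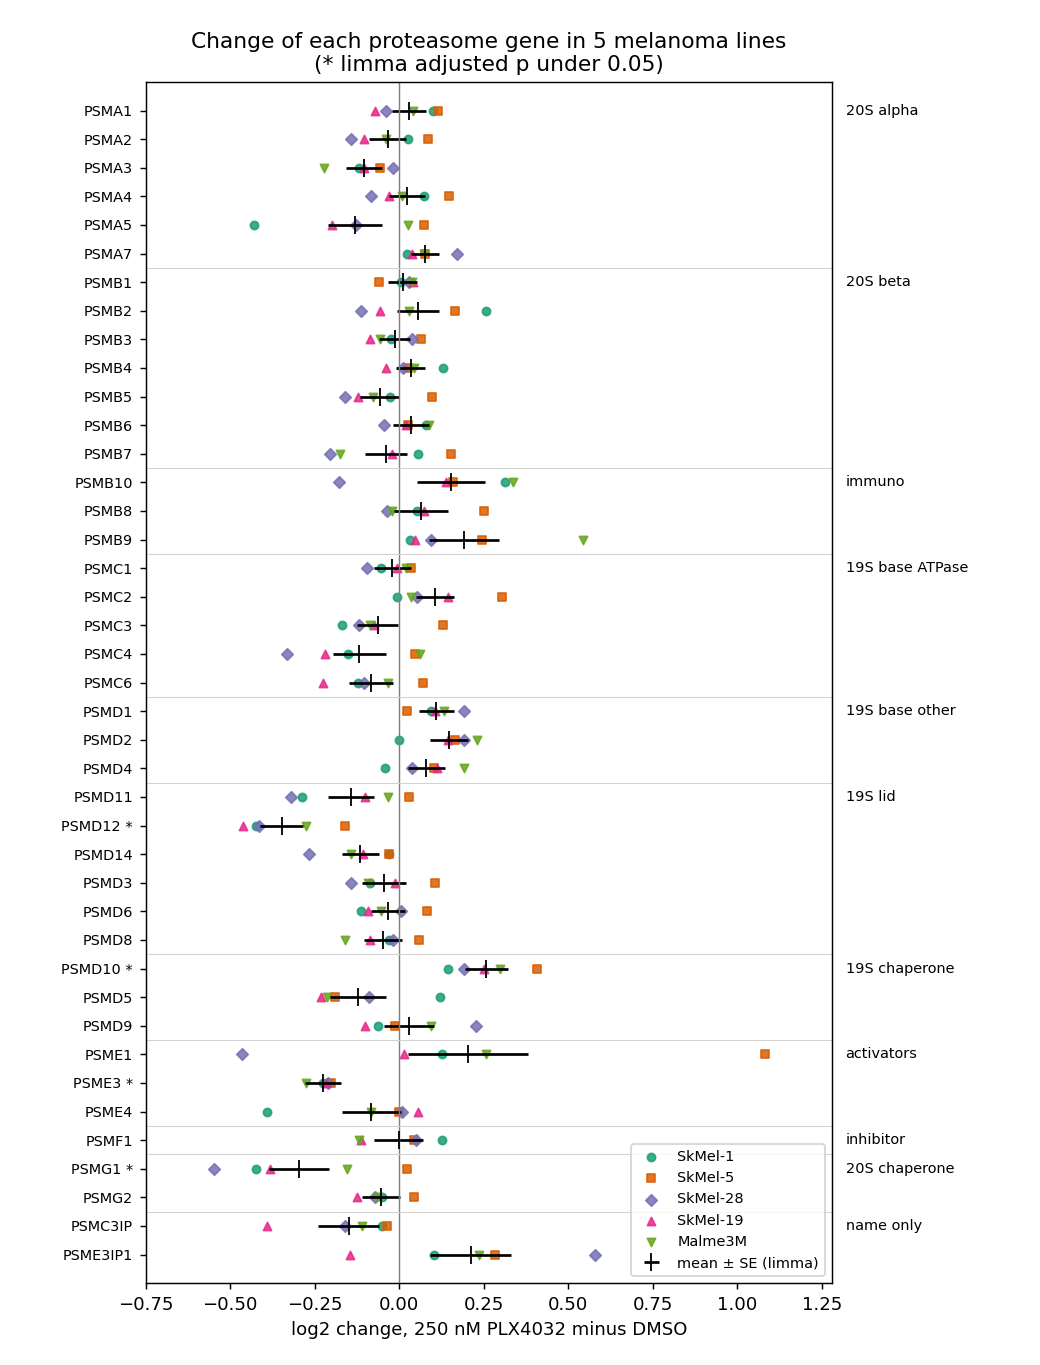
Log2 change from DMSO to 250 nM PLX4032 (x axis) for each of the 41 genes (y axis, grouped by role), with 1 coloured symbol per cell line and the limma mean with its SE in black; asterisks mark the 4 genes at an adjusted p under 0.05. Most genes lie close to 0, PSMD12, PSME3 and PSMG1 lie to the left and PSMD10 to the right, and the SkMel-5 point of PSME1 (1.08) stands apart.

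PSMD12, a scaffold subunit of the lid, had the largest change of the members. Its DMSO signals were 3212 in SkMel-1, 5128 in SkMel-5, 2597 in SkMel-28, 3237 in SkMel-19 and 2069 in Malme3M. At 250 nM they were 2392, 4586, 1945, 2348 and 1705 in the same order. Every line was lower with the drug, while the groups overlapped because the lines began at different levels. PSMD12 fell by 0.35 on the log2 scale (SE 0.06, n = 5 lines, limma adjusted p = 0.0054), a 1.27-fold decrease. The change per line ran from -0.46 in SkMel-19 to -0.16 in SkMel-5. A second probe set of the gene changed by a mean of -0.32 and was also lower in 5 of 5 lines. Both are of a kind that may bind related transcripts.

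PSME3 codes for the activator that forms a ring on the core in the nucleus and opens it without ubiquitin. Its DMSO signals were 3364, 3110.5, 2378, 2688 and 3718 from SkMel-1 to Malme3M. At 250 nM they were 2877, 2705, 2054, 2312 and 3066. With this probe set the step was nearly the same in every line, between -0.28 and -0.20. PSME3 fell by 0.23 (SE 0.05, limma adjusted p = 0.0146), a 1.17-fold decrease. All 4 of its probe sets are also of such a kind, and the 3 not used were lower in 5 of 5 lines too, by means of -0.37, -0.32 and -0.19. Their changes had SDs over lines of 0.26, 0.24 and 0.08 in that order, against 0.03 for the one used.

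PSMG1 codes for a chaperone that helps the alpha ring to form and is not part of the finished core. Its DMSO signals were 2393 in SkMel-1, 1736 in SkMel-5, 2865 in SkMel-28, 2195 in SkMel-19 and 1607 in Malme3M. At 250 nM they were 1782, 1765, 1957, 1683 and 1443. The gene was lower in 4 lines and near its control level in SkMel-5 (0.02). PSMG1 fell by 0.30 (SE 0.09, limma adjusted p = 0.0364), a 1.23-fold decrease. This call was the least steady of the 4: it was lost without SkMel-1, SkMel-28, SkMel-19 or Malme3M in turn.

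PSMD10, also known as gankyrin, escorts an ATPase of the base during cap assembly. Its DMSO signals were 2171, 2280.3, 1891, 2736 and 1682 from SkMel-1 to Malme3M. At 250 nM they were 2401, 3026, 2160.2, 3255 and 2071. All 5 lines were higher with the drug and the ranges overlapped. PSMD10 rose by 0.26 (SE 0.06, limma adjusted p = 0.0166), a 1.20-fold increase. Its only probe set may bind related transcripts as well. With all such probe sets left out, PSMD12, PSME3 and PSMD10 had no probe set to test, and PSMG1 was the only call among the 25 members tested. Without SkMel-19 the list of calls held PSMD12 and PSME3 alone, and without Malme3M it held PSMD10 and PSMD12. The plot of the 4 genes by line and dose shows steps of like size for PSME3 and unequal ones for PSMG1.

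**Figure D2:**
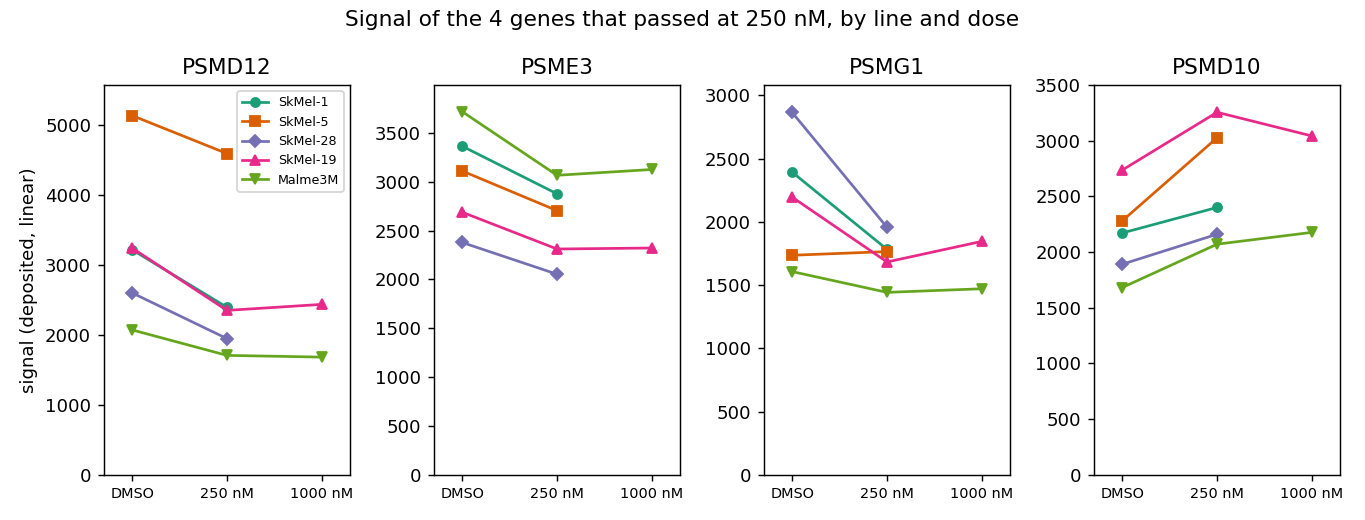
Deposited signal (linear y axis from 0) of PSMD12, PSME3, PSMG1 and PSMD10 at DMSO, 250 nM and, for SkMel-19 and Malme3M, 1000 nM PLX4032; each line joins the arrays of 1 cell line. The lines slope down for PSMD12 (3237 to 2348 in SkMel-19) and up for PSMD10 (2736 to 3255 in SkMel-19), with the 1000 nM points close to the 250 nM points.

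The promoters of these 4 genes are given because their members moved in opposite directions under the same treatment. Each sequence is the 250 bases upstream of the RefSeq transcript start on build GRCh38.p14, written 5′ to 3′ on the strand of the gene. Capitals mark matches, on either strand, to 4 motifs: the E-box CACGTG, the antioxidant response element TGACNNNGC, the ETS core CCGGAAGT and the CCAAT box. PSMD12 (chr17:67366578-67366827, minus strand) and PSMG1 (chr21:39183452-39183701, minus strand) hold TGACNNNGC. PSME3 (chr17:42833147-42833396, plus strand) holds CACGTG, and PSMD10 (chrX:108091543-108091792, minus strand) holds only a CCAAT box.
PSMD12: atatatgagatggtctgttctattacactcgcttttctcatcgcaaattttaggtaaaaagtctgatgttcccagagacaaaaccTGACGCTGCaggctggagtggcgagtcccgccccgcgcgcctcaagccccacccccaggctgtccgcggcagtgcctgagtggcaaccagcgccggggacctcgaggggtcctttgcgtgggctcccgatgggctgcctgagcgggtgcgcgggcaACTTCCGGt
PSME3: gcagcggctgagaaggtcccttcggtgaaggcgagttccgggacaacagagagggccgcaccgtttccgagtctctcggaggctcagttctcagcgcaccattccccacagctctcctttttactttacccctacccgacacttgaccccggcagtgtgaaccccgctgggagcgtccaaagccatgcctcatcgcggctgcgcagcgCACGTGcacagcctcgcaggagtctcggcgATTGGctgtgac
PSMG1: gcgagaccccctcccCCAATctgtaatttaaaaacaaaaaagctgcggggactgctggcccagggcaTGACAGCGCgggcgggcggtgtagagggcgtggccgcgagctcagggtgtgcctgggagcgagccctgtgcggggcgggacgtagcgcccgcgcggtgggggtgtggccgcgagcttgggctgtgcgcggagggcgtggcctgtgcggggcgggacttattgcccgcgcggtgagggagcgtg
PSMD10: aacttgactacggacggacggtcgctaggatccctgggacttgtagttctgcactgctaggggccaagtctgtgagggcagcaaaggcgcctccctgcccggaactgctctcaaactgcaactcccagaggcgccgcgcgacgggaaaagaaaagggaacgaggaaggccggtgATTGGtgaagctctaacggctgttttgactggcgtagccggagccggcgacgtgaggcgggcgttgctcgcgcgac
In PSMD12 the TGACNNNGC match began 165 bases before the start and the ETS core 9 bases before it. In PSMG1 the TGACNNNGC match lay 183 bases before the start and the CCAAT box 235 bases before it. The E-box of PSME3 lay 42 bases and its CCAAT box 12 bases before the start, and the CCAAT box of PSMD10 lay 76 bases before it. None of these matches overlapped. Among the 34 proteasome genes with a promoter in the table, TGACNNNGC occurred in 10 (29.4%), against 3013 of 27305 promoters and 12.7% of the 6058 belonging to tested genes. The CCAAT box occurred in 15 (44.1%, against 33.0% of all and 36.8% of tested), CCGGAAGT in 4 (11.8%, against 3.64% and 7.79%) and CACGTG in 3 (8.82%, against 6.49% and 9.44%). A match describes the letters of the window and is no measure of binding.

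The constitutive core showed little change, with a median size of 0.03 on the log2 scale against 0.09 in the cap. None of the 13 core genes passed in limma at 250 nM, and none reached an unadjusted p under 0.05. Their log2 changes lay between -0.13 and 0.08 around a median of 0.01, which became -0.02 when the arrays were centred on their medians or quantile normalised. The median over all genes tested was 0.03. Of the alpha subunits, PSMA5 had the lowest value (-0.13), followed by PSMA3 (-0.10) and PSMA2 (-0.03), and PSMA4 (0.02), PSMA1 (0.03) and PSMA7 (0.08) were above 0. The value of PSMA5 came mainly from SkMel-1, where its signal was 2992 in DMSO and 2217 at 250 nM, while SkMel-5 went from 3494 to 3676. In the beta ring, the subunits without a catalytic site had -0.01 (PSMB3), 0.01 (PSMB1), 0.03 (PSMB4) and 0.06 (PSMB2). The catalytic subunits were close to 0: PSMB5, the chymotrypsin-like site, had -0.06 (limma adjusted p = 0.483). PSMB6, the caspase-like site, had 0.03 (adjusted p = 0.667 in limma), and PSMB7, the trypsin-like site, had -0.04 (adjusted p = 0.673 in limma).

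The 3 immunoproteasome subunits had positive values under each of the 3 scalings, with a median of 0.15, but none passed in limma and none reached an unadjusted p under 0.05. PSMB9, which replaces PSMB6, had DMSO signals of 210.2, 403, 478, 265 and 343 from SkMel-1 to Malme3M. At 250 nM its signals were 215, 479.7, 511, 274 and 506. All 5 lines were higher, but most of the mean came from Malme3M (0.54), and the change of 0.19 (SE 0.10, limma adjusted p = 0.190) did not exceed the spread over lines. PSMB10, which replaces PSMB7, had DMSO signals of 480.5, 438, 338, 426 and 254, and 600.4, 490.4, 297, 469.9 and 324 at 250 nM. It was higher in 4 of 5 lines, by a mean of 0.15 (SE 0.10, limma adjusted p = 0.276). PSMB8, which replaces PSMB5, had DMSO signals of 1006, 482, 799.8, 571 and 842, and 1044, 576, 779, 602 and 829.8 at 250 nM. Its lines were split in direction and its mean change was 0.06 (SE 0.08, limma adjusted p = 0.574).

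**Figure D3:**
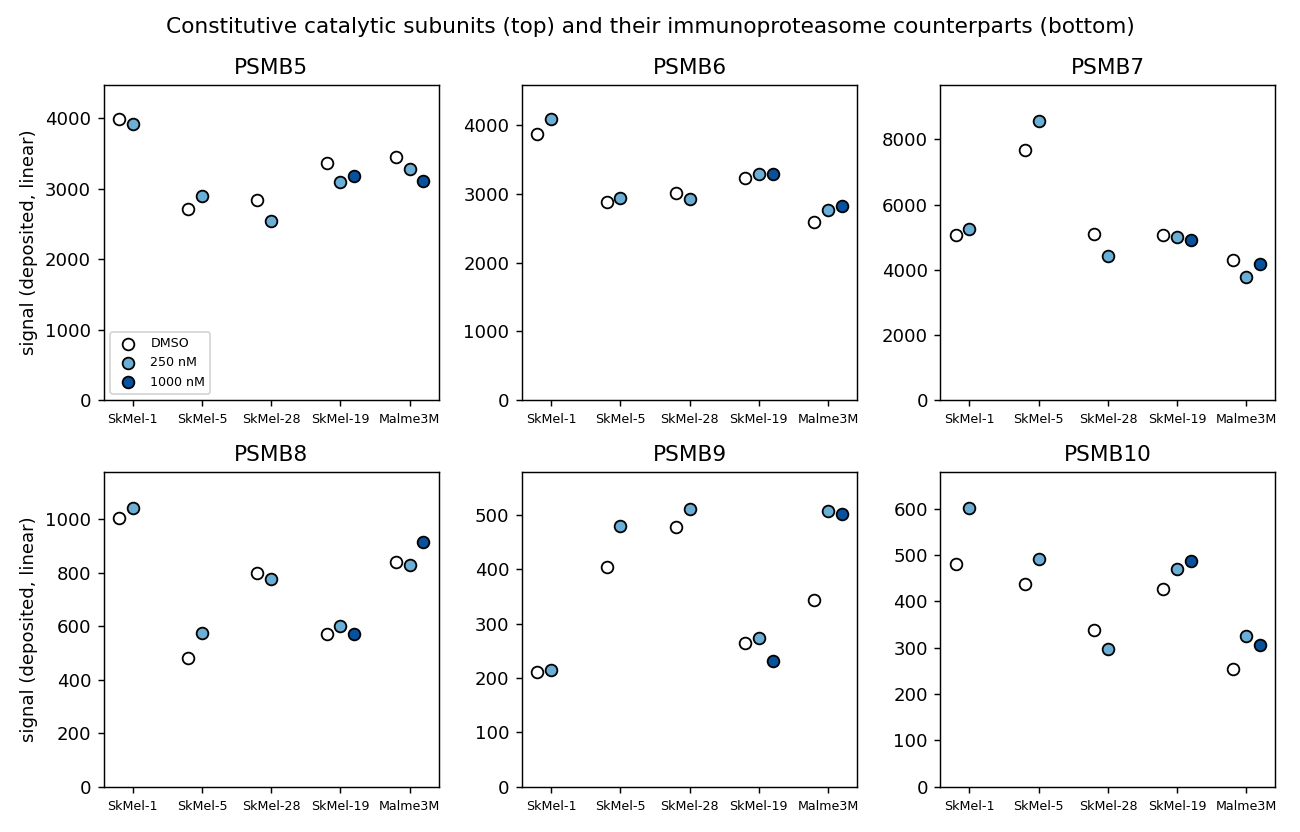
Deposited signal (linear y axes from 0) of PSMB5, PSMB6 and PSMB7 (top) and of PSMB8, PSMB9 and PSMB10 (bottom) in each cell line; open points are DMSO, light points 250 nM and dark points 1000 nM PLX4032. Drug and control points of a line lie close together in most panels, while PSMB9 runs from 210.2 in SkMel-1 to 478 in SkMel-28 in DMSO.

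Each immunoproteasome subunit was also set against its constitutive partner as a log2 ratio centred over the DMSO arrays, so that only differences between lines and doses are read. In DMSO, the PSMB9 to PSMB6 ratio was -0.93 in SkMel-1, 0.40 in SkMel-5, 0.57 in SkMel-28, -0.36 in SkMel-19 and 0.32 in Malme3M. It thus spanned 2.83-fold, lowest in SkMel-1 and highest in SkMel-28. The PSMB8 to PSMB5 ratio was 0.18, -0.30, 0.35, -0.37 and 0.14 in that order, a span of 1.65-fold. For PSMB10 to PSMB7 the values were 0.41, -0.32, -0.09, 0.24 and -0.24, a span of 1.66-fold. SkMel-1 thus had the lowest value for the PSMB9 pair and the highest for the PSMB10 pair, so the 3 ratios did not share an order over the lines. From DMSO to 250 nM the PSMB8 ratio changed by 0.12 ± 0.06 (SD, n = 5 lines), higher in 5 of 5. Both genes contributed, with means of 0.06 for PSMB8 and -0.06 for PSMB5. PSMB8 itself was higher in 3 lines. In SkMel-28 and Malme3M it was lower (-0.04 and -0.02), and PSMB5 was lower still (-0.16 and -0.08). The PSMB9 ratio changed by 0.16 ± 0.20, higher in 4 of 5, and the PSMB10 ratio by 0.19 ± 0.21, higher in 5 of 5. In SkMel-28 PSMB10 changed by -0.18 and PSMB7 by -0.20. The changes of these ratios were not tested.

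Among the cap genes that matched the symbol rule, values of the lid and of part of the base had opposite signs. All 6 lid genes had negative mean log2 changes over lines and all 3 base subunits that are not ATPases had positive ones. This held under each of the 3 scalings of the same arrays. PSMD12 alone of these passed. Proteasome subunits with other symbols are not in these classes. Of those, the cap receptor ADRM1 changed by -0.27 (limma adjusted p = 0.0166) and SEM1 by 0.02 (limma adjusted p = 0.825). The median was -0.08 for the lid, 0.11 for the non-ATPase base subunits and -0.06 for the 5 base ATPases. From SkMel-1 to Malme3M, the lid median was -0.10, 0.04, -0.20, -0.10 and -0.12. That of the non-ATPase base subunits was -0.0003, 0.10, 0.19, 0.11 and 0.19, so neither sign held in every line. PSMD14, the deubiquitinase of the lid that removes the chain, had DMSO signals of 5399.9, 3407, 4277, 4715 and 4349.9 from SkMel-1 to Malme3M. At 250 nM it had 5289.5, 3333, 3552, 4378 and 3937, lower in 5 of 5 lines by a mean of -0.12 (SE 0.05, limma adjusted p = 0.141). Of the base genes that matched the rule, PSMD2, a scaffold that docks ubiquitin-carrying proteins, had the lowest p. It changed by 0.15 (SE 0.06, limma adjusted p = 0.0813). PSMD4, a ubiquitin receptor, had 0.08 (SE 0.06, limma adjusted p = 0.308). PSMD1, the other large scaffold of the base, had 0.11 (SE 0.05, limma adjusted p = 0.141). Of the remaining lid genes, PSMD11 had -0.14 (SE 0.07), PSMD8 -0.05 (SE 0.06), PSMD3 -0.05 (SE 0.06) and PSMD6 -0.03 (SE 0.05). Over all cap genes that matched the rule the median was -0.05, with 4 genes positive and 10 negative.

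The ATPases, which form the ring that unfolds the protein, gave 1 positive and 4 negative values. PSMC2 had 0.11 (SE 0.06, limma adjusted p = 0.183), with its largest step in SkMel-5, from 5272 to 6513. PSMC4 had -0.12 (SE 0.08, limma adjusted p = 0.289), with its largest step in SkMel-28, from 1964 to 1560.0. PSMC6 had -0.08, PSMC3 -0.06 and PSMC1 -0.02. The chaperones that assemble the base beside PSMD10 were PSMD5 (-0.12, SE 0.08) and PSMD9 (0.03, SE 0.07). PSMG2, the partner of PSMG1 in building the alpha ring, had -0.05 (SE 0.06, limma adjusted p = 0.507), with signals of 2331, 2410.3, 2462, 2364 and 3027 in DMSO and 2252, 2485, 2341, 2166 and 2889 at 250 nM. PSMG1 thus passed and its partner did not, and the difference between them was not tested. Of the genes matched by name alone, PSMC3IP had -0.15 and PSME3IP1 0.21, neither past the threshold.

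Among the regulators that bind the core ends, PSME1, a subunit of the interferon-induced activator, had the drug change that varied most between lines, with an SD of 0.56. Its DMSO signals were 1151, 654, 1435, 1536 and 1544 from SkMel-1 to Malme3M, and 1259, 1398, 1037, 1551 and 1845 at 250 nM. SkMel-5 was higher by 1.08 and SkMel-28 changed by -0.46, and the mean change of 0.20 (SE 0.18) gave a limma adjusted p of 0.419. Its residual SD of 0.40 compares with the members' median of 0.07, and leaving out 1 line at a time or changing the processing moved the mean between -0.02 and 0.37. PSME4, an activator linked to DNA repair and spermatogenesis, changed by -0.08 (limma adjusted p = 0.502). One of 3 probe sets of PSME4, not the one used, was lower in 5 of 5 lines, by a mean of -0.36, so its probe sets differ. PSMF1, an inhibitor of the core in the test tube, had -0.00 (SE 0.07, limma adjusted p = 0.988), with its sign changing under quantile normalisation.

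Class medians differed in sign from line to line. The core median was 0.03 in SkMel-1, 0.08 in SkMel-5, -0.05 in SkMel-28, -0.06 in SkMel-19 and 0.03 in Malme3M. For the cap it was -0.07, 0.06, -0.10, -0.08 and -0.03, and for the immunoproteasome 0.05, 0.24, -0.04, 0.07 and 0.34. SkMel-5 was thus above 0 and SkMel-28 below 0 in all 3 classes. The medians of all genes in these lines lay between 0.01 and 0.05. For most of the genes the lines did not all move one way. The change had the same sign in all 5 lines for 9 of the 41 genes (22.0%), against 37.5% of all genes tested. Of 24 further probe sets of the members, 21 were above the filter, and 4 of these had a mean change of the opposite sign to the probe set used. The DMSO and 250 nM signals overlapped for all 41, and 133 of the 7178 genes tested had groups that did not overlap.

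At 1000 nM, given to SkMel-19 and Malme3M, none of the 41 passed in limma, against 5.29% of all genes higher and 5.89% lower. At an unadjusted p under 0.05 there were 4 of the 41, against 2313 of the 7178. PSMD12 had the lowest adjusted p (0.0561 in limma), with signals of 2433 in SkMel-19 and 1681 in Malme3M and a change of -0.35. The other genes of lowest p were PSME3, PSMD10, PSMD5, PSMD4 and PSMD2. PSME3 had signals of 2322 and 3126, a change of -0.23, and PSMD10 had 3042 and 2177, a change of 0.26. PSMD5, a chaperone of the base, changed by -0.28, PSMD4 by 0.21 and PSMD2 by 0.19. These sit beside the 250 nM values of the same lines, where again none of the 41 passed (lowest limma adjusted p = 0.0518), against 5.98% of all genes higher and 5.36% lower. There, 4 of the 41 and 2349 of the 7178 had an unadjusted p under 0.05. Both comparisons share the same DMSO arrays. The medians at 1000 nM were -0.02 for the core, -0.03 for the cap and 0.17 for the immunoproteasome, and 0.04 for all genes.

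Between 1000 nM and 250 nM, none of the 41 passed in limma and none had an unadjusted p under 0.05. The background was the same, with 0% of all genes higher and 0% lower, and 75 of the 7178 at an unadjusted p under 0.05. The lowest p among the members belonged to PSMD1, a base scaffold, with -0.12 (SE 0.07). PSME4 followed with -0.17 (SE 0.10) and PSMB4, a beta ring subunit without a catalytic site, with 0.09 (SE 0.06). PSMC3, an ATPase of the base, had 0.12 (SE 0.08), PSMD8 of the lid 0.09 (SE 0.08) and PSMB1 of the beta ring -0.06 (SE 0.06). All of these had a limma adjusted p of 0.999.

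The response of Malme3M was compared with that of SkMel-19 over both doses as an interaction term in the 6 arrays of these lines. None of the 41 passed in limma, against 0.933% of all genes higher and 1.98% lower in Malme3M. At an unadjusted p under 0.05 there was 1 of the 41, against 1329 of the 7178. That gene was PSMB9, whose response was greater in Malme3M by 0.61 (SE 0.21, limma adjusted p = 0.184). In Malme3M, PSMB9 had signals of 343 in DMSO, 506 at 250 nM and 501 at 1000 nM, and in SkMel-19 it had 265, 274 and 231. With 1 DMSO array per line, the term rests on a single control in each.

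The lines differed in most of the proteasome genes. Of the 41, 39 differed among the 5 lines by limma's F test over the line terms, against 90.2% of all genes, so the share is near the background. The exceptions were PSME1 (limma adjusted p = 0.112) and PSMC3IP (limma adjusted p = 0.179). This F test took the DMSO and 250 nM arrays of a line as its repeats, and these may share a culture. Its p-values therefore measure the lines against the spread within lines, not against repeated cultures. The mean change at 250 nM was smaller than the SD over lines in DMSO for all 41, whereas it was larger for 16.2% of all genes. PSMC3IP was close to a tie, with a change of -0.15 and an SD of 0.16. Over the 250 nM arrays the SD of PSMG1 was 0.16, below the size of its change, and PSMD2 likewise had an SD below the size of its change. The spread was narrow beside that of other genes, with a median SD over lines of 0.32 on the log2 scale against 0.46 for all genes tested. The genes were again not matched for signal. The highest DMSO line exceeded the lowest by a median of 1.78-fold, against 2.22-fold for all genes, and by 1.29-fold to 3.41-fold over the members. By class, the median SD was 0.29 for the core, 0.34 for the cap and 0.43 for the immunoproteasome.

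**Figure D4:**
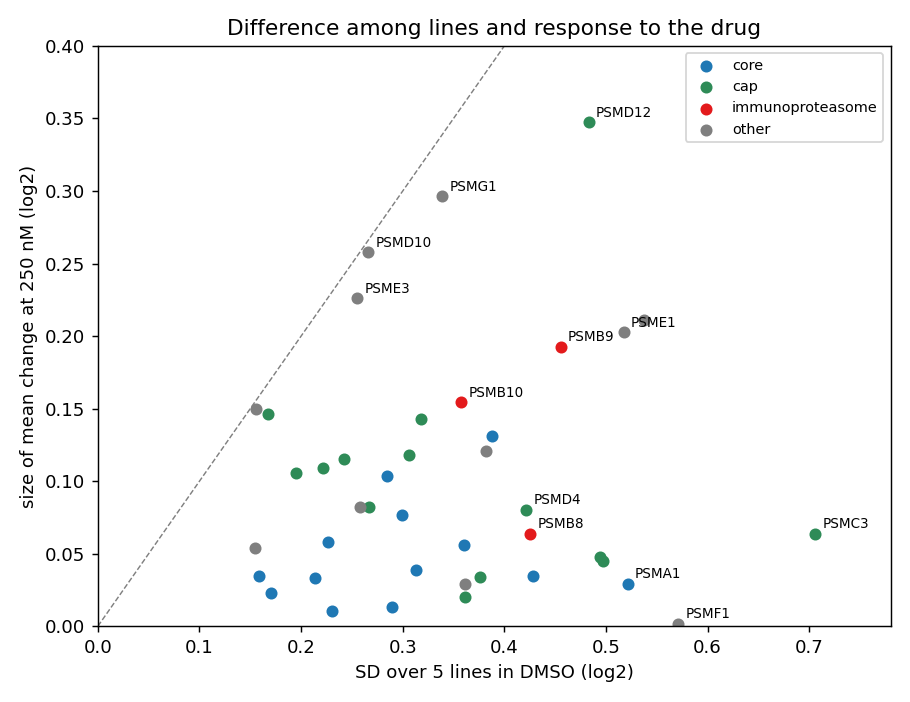
SD of the log2 value over the 5 lines in DMSO (x axis) against the size of the mean log2 change at 250 nM (y axis), 1 point per gene, coloured by class; the dashed line marks equal values. All 41 genes lie to the right of that line, from PSMC3 with an SD of 0.71 to PSMD12 with the largest change (-0.35).

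PSMC3 had the widest spread, with DMSO signals of 5144 in SkMel-1, 3954 in SkMel-5, 2328 in SkMel-28, 3789 in SkMel-19 and 1498 in Malme3M. The 250 nM signals, 4573, 4325, 2144, 3601 and 1409.9, kept SkMel-1 highest and Malme3M lowest, which are 3.41-fold apart in DMSO. PSMF1 was lowest in SkMel-1 and highest in SkMel-28, with DMSO signals of 648, 1249.7, 1839, 1587 and 1339 in the same line order, a span of 2.80-fold. The alpha subunit PSMA1 ran from 2873 in Malme3M to 7513 in SkMel-28, a span of 2.61-fold. The lid subunit PSMD3 ran the other way for SkMel-28, from 1181 there to 2971 in SkMel-1, a span of 2.50-fold. The SD was 0.71 for PSMC3, 0.57 for PSMF1, 0.54 for PSME3IP1, 0.52 for PSMA1 and PSME1 and 0.50 for PSMD3.

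The highest and the lowest lines were mostly the same with and without the drug. The same line was highest in DMSO and at 250 nM for 38 of the 41 genes (92.7%), against 71.4% of all genes. The same line was lowest for 33 (80.5%), against 70.1%. Malme3M was the lowest line for 15 of the 41 (36.6%), against 18.4% of all genes, and for 7 of the 13 core genes. These counts hold for the probe sets used. Among these genes, other probe sets above the filter were lowest in Malme3M for PSMA1, PSMA7 and PSMB1. They were lowest in SkMel-28 for PSMB2, PSMD11 and PSMD12, and those of PSMD4 were split between the lines. The core genes in Malme3M lay a median of -0.31 from their mean over lines, and the cap genes -0.23. All genes together lay 0.04 from theirs in Malme3M. Under median centring these values were -0.46, -0.37 and -0.10, and under quantile normalisation -0.27, -0.18 and 0.00. SkMel-1 was the highest line for 14 of the 41 (34.1%), against 19.5% of all genes. The 3 immunoproteasome genes had a median of 0.07 in Malme3M, which turned to -0.07 and -0.01 under the other scalings. Malme3M was the lowest line for PSMB10 (254 in DMSO), while SkMel-1 was the lowest for PSMB9 and SkMel-5 for PSMB8. These shares are descriptions, since the genes of a line share 1 array per dose.

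The genes around the proteasome gave the following picture at 250 nM. Counts here and in the next paragraph stand beside the 15.2% of all genes that rose and the 13.1% that fell. Of 9 other proteasome subunits and bound proteins tested, 0 rose and 3 fell in limma, each lower in 5 of 5 lines. These were the proteasome-bound ubiquitin ligase UBE3C (-0.42, SE 0.07, limma adjusted p = 0.0029), the deubiquitinase UCHL5 (-0.38, SE 0.09, adjusted p = 0.0146) and its cap receptor ADRM1 (-0.27, SE 0.06, adjusted p = 0.0166). ADRM1 signals were 6919, 3439.6, 3025, 4640.1 and 2926 in DMSO and 5123, 3204, 2282, 4013 and 2582 at 250 nM, in the line order above. UBE3C signals were 1794, 1162, 628, 1686 and 1997 in DMSO and 1284, 891, 449, 1319 and 1488 at 250 nM. Both genes were lower in every line, by a smaller step in SkMel-5 for ADRM1.

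Of 8 tested regulators of proteasome genes, 1 rose and 3 fell in limma. The small MAF factors MAFF and MAFG, which pair with NFE2L1 and NFE2L2 on DNA, fell by 3.35 and by 0.63. NFE2L2, the activator of the antioxidant response, fell by 0.28 (SE 0.09, limma adjusted p = 0.0411). STAT3 rose by 0.46. NFE2L1, the factor best known for raising proteasome genes when the proteasome is impaired, had DMSO signals of 2468, 1997, 1881, 1986 and 2217 and 250 nM signals of 5017, 1699, 1579.9, 2528 and 2225. It was higher in SkMel-1 and SkMel-19, near its control level in Malme3M and lower in SkMel-5 and SkMel-28. The mean change of NFE2L1 was 0.18 (SE 0.17, limma adjusted p = 0.445). This gene is named outside the rule for pathway genes, after its values were seen. Of 8 NFE2L2 targets, GCLC rose by 0.54 and GCLM, which codes for the other subunit of the same glutathione enzyme, fell by 0.41.

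The counts that follow are for lists of genes that act with the proteasome, and stand beside the 15.2% of all genes that rose and the 13.1% that fell. None of the 4 ubiquitin and E1 genes tested passed in limma, 0 reached an unadjusted p under 0.05, and the smallest p belonged to UBA1 (0.17, SE 0.08) and UBB (0.05, SE 0.04). None of the 10 shuttle and p97 genes passed in limma and 0 reached an unadjusted p under 0.05, with VCP, the p97 segregase itself, at 0.09 (SE 0.05) and NPLOC4, its cofactor, at 0.13 (SE 0.08). Of 17 deubiquitinases, USP48 (0.56) and CYLD (0.46) rose and USP1 (-0.31) and USP3 (-0.28) fell. Of 16 genes of the SCF and APC/C ligases, which mark cell cycle proteins, 0 rose and 3 fell: ANAPC10 (-0.40), SKP2 (-0.32) and CDC16 (-0.23). Among 13 class I presentation genes, HLA-G (0.25) and CANX (0.14) rose and 0 fell. Both were read by probe sets that may bind related transcripts. The part of other class I genes in the HLA-G signal was not tested. TAP1, the peptide transporter gene beside PSMB9, had DMSO signals of 306, 400.1, 308, 41.5 and 566 and changed by -0.24 (SE 0.11, limma adjusted p = 0.115), and is named here after its values were seen. Among 9 interferon response genes, IRF9 (0.74) and IRF7 (0.45) rose and USP18 (-0.46) fell. Each gene called in this paragraph moved the same way in 5 of 5 lines. All of them except IRF9 and USP18 were read by probe sets that may bind related transcripts.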

How the data were processed

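The deposited values are linear intensities, 1 per probe set and array, for 22277 probe sets on 12 arrays. Per the submitters' processing notes, GCOS produced them, with no version named, and per the labels' protocols biotinylated cRNA was hybridised. The summary of probes and the background step are not given in the sources used here. With 2% of values trimmed at either end, every array had a mean of 500.1.

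Values were used as log2(value + 12), 12 being the 20th percentile of all values, so changes of dim genes are understated. After 62 control probe sets were set aside, 19064 probe sets had 1 symbol, 1043 several and 2108 none. By Entrez ID, 19052 were matched to the gene table and 0 symbols changed. A gene took the values of its highest-mean probe set, and genes at or above the 40th percentile (log2 6.61, a signal of 85.7) were tested. Levels were not compared between probe sets, and the number of arrays limits the precision.

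Comparisons used limma 3.58.1 in R 4.3.3 (a block for cell line, trended prior variance, Benjamini-Hochberg adjustment across tested genes, threshold 0.05). The pairing comes from the labels, which name the cell line of each array but no culture. After subtracting group means, arrays of a line correlated at 0.898 to 0.931 and arrays of different lines at -0.135 or lower. Subtracting the mean of so few arrays by itself pushes values between different lines below 0, so those values do not bear on the pairing. The 250 nM comparison used 10 arrays and the comparisons with 1000 nM the 6 arrays of SkMel-19 and Malme3M. The procedure was tested on simulated data. Plots were made in Python 3.11.15 with matplotlib 3.10.9.

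Members, lists and roles were chosen with earlier results of these data known. Named with own values were PSMB5 to PSMB10, PSME1, PSME3, PSMF1, PSMD4 and PSMD14, members past the threshold at 250 nM, the 6 of smallest p at 1000 nM and between doses, the 6 of largest SD over lines, and up to 4 genes per pathway list (the 2 of smallest p where none passed). Motifs were searched in the 250 bases before the start in a RefSeq promoter table. Alternatives covered the pseudocount, filter, scaling, choice of probe set, prior variance, block, samples in the fit, a floor on low signals and leaving out each line.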

Additional observations from a re-analysis of the deposited data

Results flagged for a closer look

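In 9 of 123 sets of 5 values examined, with 1 value per line, 1 line stood apart from the other 4. The gap to its neighbour was judged relative to the range by Dixon's test at the 95% level. For this test chance flags about 1 in 20 sets. Each of the 41 genes gave a set of DMSO signals, a set of signals at the lower dose and a set of changes between them. All 9 flagged sets held signals and none held changes, so the share flagged among signal sets alone was higher. SkMel-5 accounted for 4 of them and SkMel-1 for 2, and all the others, more than in SkMel-1, were in Malme3M.

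The cap ubiquitin receptor PSMD4 was high in SkMel-5 in both groups, with a signal of 5529.5 in DMSO against 2649 to 3156 in the other lines, and 5941.3 at 250 nM against 2873 to 3412. The base ATPase PSMC1 was low in SkMel-1 in both groups, with 1929.9 in DMSO against 3233 to 3515, and 1857.9 at 250 nM against 3291 to 3470. The beta subunit PSMB1 was high in SkMel-5 in DMSO, with 8090.7 against 5355 to 5991. In Malme3M, the beta subunit PSMB2 was low at 250 nM, with 3792.3 against 5624 to 6362. The base ATPase PSMC2 was high there in DMSO, with 6885.3 against 5034 to 5272, as was the core assembly chaperone PSMG2, with 3026.6 against 2331 to 2462. PSMC3IP was low in SkMel-5 in DMSO, with 371.0 against 466 to 486. No test of any cause was made for these values.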

How the results depend on the processing

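The count of 4 genes called at 250 nM became 1 (PSMG1) when probe sets that may bind related transcripts were left out, which left 25 of the 41 genes, and 0 with no replicate block, where the pairing by line is not used and 13 of all genes were called. Leaving out 1 line at a time gave 2 to 4 calls at 250 nM, with 2 without SkMel-19 or Malme3M. At 1000 nM, 1 gene (PSMD12) was called with arrays centred on the median and with all 12 arrays in 1 fit. At 250 nM in the same lines, 1 was called with median centring (PSMD12) and with the mean of all probe sets (PSME3), and 4 with all 12 arrays. The number that differ among lines became 24, of 25 tested, without those probe sets. The other 106 values of the main comparisons were counted as unchanged. For counts of genes this meant the same count or one within 1.5 times. For class medians it meant a move smaller than the SD over lines of the main value. The core median was so counted although it went from 0.01 to -0.02 under median centring and quantile normalisation. PSMD12 was called in 15 of 16 alternatives, PSMD10 and PSME3 in 14 of 16 each and PSMG1 in 10 of 17, and each kept its sign in all of them. Leaving out each 1000 nM array in turn from the fit of all 12 arrays was added after seeing the data. It gave 0 calls in both comparisons of that dose, so the PSMD12 call of the full 12-array fit was lost. The cause of these differences was not tested. Signals of all 41 genes lay above the filter, and what limits the precision of single genes was not tested; residual SDs were 0.19 for PSME3IP1, 0.15 for PSMB9 and 0.15 for PSMB10, against the members' median of 0.07.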
